A study of Mus musculus with 4 samples.

Results

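Coding exons away from transcription start sites (TSS) were examined for DNA methylation in 344SQP (parental) and 344SQR (anti-PD1-resistant) tumors. A CpG cytosine, on either strand, was taken when it had 20 or more reads in all 4 tumors, lay in the coding sequence of an autosomal protein-coding gene, and was more than 5 kb from any annotated TSS. Sites were grouped by gene, genes with 3 or more sites were kept, and genes with symbols starting with Zfp, Olfr, Vmn, Hox or Pcdh were left out. This gave 3844 genes with 49098 sites, of 1081201 sites with that coverage in the whole series and 202839 in any coding sequence. A gene held a median of 8 sites and at most 180, and its methylation in a tumor is the mean over its sites of the percent of reads that were methylated. Of 4978 genes with any such site, 1134 had 1 or 2 and were not used.

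The 344SQP tumors grew from a mouse lung adenocarcinoma cell line of the p53R172HΔg/+ KrasLA1/+ genotype, and the 344SQR tumors from a derivative with acquired resistance to anti-PD1. Cells were injected under the skin of the leg of female 129Sv/Ev mice aged 12 to 16 weeks. Anti-PD1 (10 mg/kg, 4 injections) was started in every mouse on day 4, and tumors were taken 24 h after the last dose. There were 2 tumors of each line, each from its own mouse, and no tumor without anti-PD1 was measured. The 344SQR line is a single derivative, so the resistance of these tumors and any other difference between the lines cannot be told apart.

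In mammalian tissue most CpGs inside genes are methylated, in contrast to those of CpG island promoters. Gene-body methylation is laid down in part by DNMT3B, which is drawn to the histone mark that follows elongating RNA polymerase, and islands within genes can stay unmethylated. Reduced representation bisulfite sequencing (RRBS) reads a fraction of the genome rich in CpGs, so that CpG-dense exons are better covered than others. DNA came from whole tumors, so altered methylation within cells and an altered mix of cells cannot be told apart in any value given here.

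Coverage of the coding exon sites was high in every tumor. The mean was 95.4 and 116.3 reads per site in 344SQP and 124.9 and 134.3 in 344SQR. At the minimum of 20 reads a single read is worth 5 percentage points, which is why values are given per gene. All tables together held 116794455 and 138331886 CpG calls for 344SQP and 160548303 and 174689402 for 344SQR. Sites listed at any coverage numbered 2770733 and 2695851 for 344SQP and 3772295 and 6377285 for 344SQR, so that 344SQR replicate 2 stood apart. It was also the tumor with the lowest mean methylation, and a link between the number of listed sites and methylation was not tested.

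Coding exons were highly methylated in both lines, and the mean was lower in both 344SQR tumors. Averaged over the 3844 genes it was 85.3% and 85.4% in 344SQP and 82.2% and 78.1% in 344SQR. This is 85.3% ± 0.0599 (SD, n = 2) in 344SQP against 80.2% ± 2.87 (SD, n = 2) in 344SQR, a difference of -5.15 percentage points (344SQR minus 344SQP throughout). Without 344SQR replicate 2 it was -3.13 points. The 344SQP tumors lay close together, while replicate 2 of 344SQR lay well below replicate 1. In an exact permutation test (two-sided) p was 0.333, the smallest that 2 tumors against 2 allow, so no single value of this kind can pass 0.05. The difference over all 63250 features of the series (coding exons, distant introns, promoters and other windows of 1 kb) was -5.25 points. It was -6.89 points for introns over 5 kb from any TSS and -1.40 points for promoters.

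Per gene, the median difference was -3.06 points, with quartiles of -8.77 and -0.462. Over all features the median was -2.39 points, with quartiles of -9.51 and -0.0510. In 1982 genes (51.6%) both 344SQR tumors were below both 344SQP tumors, against 44.4% of all features. That share was 56.7% for introns over 5 kb from any TSS and 31.7% for promoters. In 229 genes (5.96%) both 344SQR tumors were above, against 5.55% of all features and 3.95% of these introns. In 1633 genes the lines overlapped. The mean was over 10 points lower in 819 genes and over 10 points higher in 36. For over 20 points the counts were 157 and 3. Changes of these sizes were not counted over all features, whose lower quartile of -9.51 points was below that of the coding exon genes. Within lines, replicate 2 was below replicate 1 in 2892 genes for 344SQR and in 1915 for 344SQP.

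Fewer genes were in the most methylated class in 344SQR. Genes at 90% or more made up 58.7% and 57.4% of the 3844 in 344SQP and 48.7% and 39.4% in 344SQR. Those between 40% and 60% made up 4.63% and 4.45% against 6.37% and 10.6%. By the mean over all tumors, 1885 genes were at 90% or more and 61 under 20%.

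Values were tested with the edgeR quasi-likelihood test on methylated and unmethylated reads, over all features at once. In total 2 of the 3844 genes passed an adjusted p of 0.05, both lower in 344SQR, beside 0.136% of all features. At an unadjusted p under 0.05 there were 770 genes, 743 of them lower, which is 20.03% beside 16% of all features. The logistic test per site combined by Stouffer's z does not count the spread between tumors. It called 2507 genes (2245 lower, 262 higher), 65.2% beside 59% of all features. For introns over 5 kb from any TSS the shares were 20.2% with edgeR (unadjusted p under 0.05) and 71.5% with the logistic test. By limma 0 genes passed, with 738 at an unadjusted p under 0.05, beside 10662 of all 63250 features. With edgeR, 11 genes passed without 344SQP replicate 1, 22 without 344SQP replicate 2 (14 lower, 8 higher), 42 without 344SQR replicate 1 and 0 without 344SQR replicate 2 (285 at an unadjusted p under 0.05), so the count rests on single tumors. In these fits 0.713%, 0.729%, 0.979% and 0.0127% of all features passed.

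Khk, ketohexokinase, which phosphorylates fructose, fell in 344SQR. Its 5 sites all lay in exon 6 and were covered by 89 to 190 reads. Methylation was 96.6% and 97.1% in 344SQP and 70.6% and 67.5% in 344SQR, which is 96.8% ± 0.297 (SD, n = 2) against 69.1% ± 2.23 (SD, n = 2), with both 344SQR tumors lower (edgeR adjusted p = 0.0392). The Khk promoter was at 2.48% and 1.97% against 2.70% and 2.42%, so that it was low in every tumor. With each tumor left out in turn the edgeR adjusted p ran from 0.0146 to 0.136, and the call was lost without 344SQP replicate 2 (0.0580) and without 344SQR replicate 2. It was also lost at a minimum of 50 reads (0.0539) and with reads thinned to equal coverage (0.112). The Khk difference itself, -27.8 points, hardly moved, at -27.8 and -28.5 points in these settings and -29.4 to -26.2 with a tumor left out.

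Baiap2l2, which encodes a membrane-binding protein of epithelial cells, fell from an already low level. Its 57 sites, each read 35 to 257 times, averaged 15.3% and 17.0% in 344SQP and 6.08% and 5.52% in 344SQR. This is 16.2% ± 1.21 (SD, n = 2) against 5.80% ± 0.393 (SD, n = 2), again with both 344SQR tumors lower (edgeR adjusted p = 0.0328). Without single tumors the edgeR adjusted p ran from 0.00153 to 0.225, the latter without 344SQR replicate 2, and with reads thinned to equal coverage it was 0.102. The difference was -10.4 points, -10.1 without 344SQR replicate 2 and -10.1 with thinned reads. The gene was also not called when all features needed 10 or more sites. The sites fell in 4 neighbouring coding exons that were all lower in 344SQR. Exon 7 (chr15:79270506-79270652) was at 25.9% and 32.6% against 5.17% and 1.9%, and exon 10 (chr15:79261074-79261287) at 29.5% and 31.3% against 17.4% and 17.3%. Between them, exon 8 was at 7.12% and 11.0% against 3.06% and 2.83% and exon 9 at 8.44% and 6.36% against 1.49% and 1.47%.

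The stretches of both genes with most sites are shown from the mm10 reference, 5′ to 3′ on the strand of the gene, with the CpGs that were read in capitals. That of Khk spans chr5:30929521-30929608 (plus strand) and holds 4 such CpGs, while that of Baiap2l2 spans chr15:79261411-79261540 (minus strand) and holds 16. The reference is of the C57BL/6J strain, so the sequence of these 129Sv/Ev tumors may differ at single bases.
Khk exon 6: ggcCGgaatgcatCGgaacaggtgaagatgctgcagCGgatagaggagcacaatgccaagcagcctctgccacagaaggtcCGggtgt
Baiap2l2 exon 9: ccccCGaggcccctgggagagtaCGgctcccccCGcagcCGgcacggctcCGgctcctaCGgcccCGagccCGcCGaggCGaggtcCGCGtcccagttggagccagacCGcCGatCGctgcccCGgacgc

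Among genes with 10 or more sites and no overlap between lines, the 6 with the largest negative difference were not called by edgeR but differed by -27.0 to -46.4 points. Mmp24, a membrane-type matrix metalloproteinase, had 13 sites in exon 6 of 9 at 82.6% and 89.3% in 344SQP and 50.7% and 28.3% in 344SQR (edgeR adjusted p = 0.116). The 344SQR tumors were far apart here, but both lay far below the 344SQP tumors. Zbtb7a, a transcriptional repressor with zinc fingers, was at 90.8% and 87.1% in 344SQP and 66.0% and 52.7% in 344SQR over 44 sites (edgeR adjusted p = 0.0834). The difference was not the same at all sites of Zbtb7a. Over the gene it was -16.7 points in place of -29.6 for sites with 50 or more reads, and -19.0 with all reads of the gene pooled.

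In Zmynd15, a repressor of germ cell genes, 18 sites of the last exon were at 57.2% and 53.5% in 344SQP and 38.6% and 14.7% in 344SQR. Tmem108, a neuronal transmembrane protein, was at 86.3% and 83.3% in 344SQP and 72.5% and 43.1% in 344SQR over 11 sites of exon 3, and the exchange factor Arhgef4 at 76.9% and 71.8% against 58.9% and 32.2% over 11 sites of exon 2. In all of these replicate 2 of 344SQR was the lowest tumor by a wide margin. Without it the difference went from -28.7 to -16.8 points in Zmynd15, from -27.0 to -12.3 in Tmem108 and from -28.8 to -15.4 in Arhgef4. Pcnx2, a membrane protein of the pecanex family, had 13 sites spread over 5 exons at 80.6% and 78.7% in 344SQP and 53.4% and 44.9% in 344SQR. In its exon 32 the lines overlapped, with 78% and 81.8% against 64.7% and 81.2% over 2 sites, while exon 20 was at 85.7% and 76.6% against 50.7% and 33.3%. By edgeR, Mmp24 passed without replicate 1 of 344SQP (adjusted p = 0.000810) or of 344SQR (0.0424), and Zbtb7a with any tumor left out except 344SQR replicate 2 (0.00209 to 0.0499). Zmynd15 and Tmem108 passed without 344SQR replicate 1 (0.0499 each). The promoter of Mmp24 was at 2.54% and 3.04% against 2.13% and 2.04% and that of Zbtb7a at 1.46% and 1.48% against 1.32% and 1.39%, so both were low in every tumor. That of Zmynd15 was low as well, at 2.26% and 3.30% against 1.54% and 1.65%. The Arhgef4 promoter was lower in both 344SQR tumors, at 10.4% and 16.5% against 4.02% and 5.50%. The lines overlapped at the promoters of Tmem108 (24.4% and 43.0% against 27.0% and 46.3%) and Pcnx2 (15.6% and 25.7% against 18.2% and 24.4%).

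A stretch of each of the other 5 genes is shown in the same way. For Pcnx2, Arhgef4 and Tmem108 it holds 3 of 13, 5 of 11 and 8 of 11 sites. They lie at chr2:155810315-155810437 (plus strand), chr8:125818732-125818780 (minus strand), chr1:34721895-34722038 (plus strand), chr11:70465959-70466081 (plus strand) and chr9:103499683-103499748 (minus strand), in the order printed.
Mmp24 exon 6: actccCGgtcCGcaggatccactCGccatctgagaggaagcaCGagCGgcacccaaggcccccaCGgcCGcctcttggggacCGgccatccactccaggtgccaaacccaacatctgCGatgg
Pcnx2 exon 20: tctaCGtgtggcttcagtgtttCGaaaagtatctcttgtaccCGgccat
Arhgef4 exon 2: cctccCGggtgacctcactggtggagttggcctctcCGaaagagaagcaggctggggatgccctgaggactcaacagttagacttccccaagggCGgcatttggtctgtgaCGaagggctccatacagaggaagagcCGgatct
Zmynd15 exon 14: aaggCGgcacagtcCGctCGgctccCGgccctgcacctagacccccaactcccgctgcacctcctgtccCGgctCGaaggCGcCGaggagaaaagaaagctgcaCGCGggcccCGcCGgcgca
Tmem108 exon 3: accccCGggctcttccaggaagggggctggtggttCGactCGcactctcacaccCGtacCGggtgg

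Higher methylation in both 344SQR tumors was rarer and smaller. Adamtsl5, a secreted protein of the extracellular matrix, had the largest positive difference among genes with 10 or more sites and no overlap, at 14.3% and 28.6% in 344SQP and 36.4% and 54.5% in 344SQR over 19 sites (edgeR adjusted p = 0.20). In its exon 8, 15 sites were at 4.64% and 19.3% against 28.3% and 44.8%, so that 344SQP replicate 1 was nearly unmethylated. Kcnn4, a calcium-activated potassium channel, was at 72.9% and 78.8% in 344SQP and 91.6% and 85.6% in 344SQR over 33 sites of exon 3, so that here the lines stood apart by more than the tumors within them. Fry, a microtubule-binding protein of the furry family, was at 74.4% and 72.2% against 88.2% and 81.1% over 23 sites. The difference lay in exon 44, at 68.9% and 69.5% against 89.7% and 83.2%, while exon 12 was at 96.3% and 94.5% against 90.8% and 88.3% over 2 sites.

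For the other 3 genes the gap between lines was small. 6430628N08Rik, a gene with a single coding exon, was at 11.7% and 17.0% against 17.8% and 28.1%. B3gnt6, the synthase of core 3 mucin glycans, was at 5.50% and 10.9% against 11.3% and 21.1% over 49 sites, and Espnl, a relative of the actin bundler espin, at 34.9% and 39.7% against 40.1% and 50.5% over 90 sites. In each of them 344SQP replicate 2 and 344SQR replicate 1 differed by under 1 point, and replicate 2 was the higher tumor of both lines. Without 344SQR replicate 2 the difference went from 8.59 to 3.44 points in 6430628N08Rik, from 8.0 to 3.12 in B3gnt6, from 7.99 to 2.82 in Espnl, and from 24 to 15 in Adamtsl5. None of the 6 genes passed an adjusted p of 0.05 with all tumors (edgeR adjusted p = 0.187 for Kcnn4 and 0.419 for Espnl), but without 344SQP replicate 2 Adamtsl5 (0.00288) and B3gnt6 (0.0308) did.

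The corresponding stretches lie at chr10:80342909-80342996 (minus strand), chr7:24377326-24377475 (plus strand), chr5:150436774-150436849 (plus strand), chr4:115898157-115898303 (plus strand), chr7:98193981-98194134 (minus strand) and chr1:91344975-91345127 (plus strand). The stretch of 6430628N08Rik was itself at 13.3% and 19.8% against 14.1% and 17.8%, where the lines overlapped, so it does not carry the difference of the gene.
Adamtsl5 exon 8: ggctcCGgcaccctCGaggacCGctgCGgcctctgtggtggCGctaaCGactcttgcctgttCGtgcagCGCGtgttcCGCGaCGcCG
Kcnn4 exon 3: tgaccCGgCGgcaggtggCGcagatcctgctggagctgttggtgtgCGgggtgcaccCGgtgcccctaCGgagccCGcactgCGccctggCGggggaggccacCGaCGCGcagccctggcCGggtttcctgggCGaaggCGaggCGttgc
Fry exon 44: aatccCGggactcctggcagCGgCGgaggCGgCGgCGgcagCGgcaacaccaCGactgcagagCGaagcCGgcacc
6430628N08Rik exon 2: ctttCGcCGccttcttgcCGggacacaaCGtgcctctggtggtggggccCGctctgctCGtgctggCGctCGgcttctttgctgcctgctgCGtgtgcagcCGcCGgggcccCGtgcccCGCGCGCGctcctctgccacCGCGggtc
B3gnt6 exon 2: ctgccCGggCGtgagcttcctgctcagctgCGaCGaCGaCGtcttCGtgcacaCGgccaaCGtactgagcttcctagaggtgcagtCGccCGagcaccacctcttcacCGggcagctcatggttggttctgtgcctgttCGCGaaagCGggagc
Espnl exon 9: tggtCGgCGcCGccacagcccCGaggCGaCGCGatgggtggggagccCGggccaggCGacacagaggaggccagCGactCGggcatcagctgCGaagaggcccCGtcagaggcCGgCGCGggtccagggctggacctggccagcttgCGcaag

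The genes with most sites showed how far exons of a single gene can differ. Speg, a kinase of striated muscle, had 180 sites at 42.6% and 42.9% in 344SQP and 37.5% and 37.4% in 344SQR. Its exon 30, with 76 sites, was at 14.2% and 17.3% against 12.6% and 16.0%, but exon 38 was at 85.5% and 78% against 65.7% and 50.7% and exon 11 at 96.8% and 94.5% against 94.3% and 90.4%. Lmtk3, a neuronal kinase, was at 59.3% and 59.0% against 54.5% and 46.5%, with exon 12 at 81.0% and 79.2% against 74.3% and 62.2% and the next exon at 5.16% and 7.99% against 4.71% and 5.41%. Its difference went from -8.65 to -4.62 points without 344SQR replicate 2. Plec, encoding the cytolinker plectin, was almost fully methylated, at 97.7% and 97.9% in 344SQP and 97.6% and 97.3% in 344SQR over 169 sites, with almost no difference between lines. Shank1, a scaffold of the postsynaptic density, was at 22.8% and 28.9% against 24.3% and 28.2%, and in it the lines overlapped because replicate 2 was the higher tumor in each.

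Of 1557 genes with 10 or more sites, 233 held both a site under 20% and a site over 80% by the mean over tumors. In 361 genes every site was over 80%, and in 14 every site was under 20%. The median SD between sites of a gene was 11.6 points. A median of 64.3% of a gene's sites had a lower mean in 344SQR, and in 57 genes all sites did.

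The least methylated exons were near 0% in each tumor. Ano8, a member of the anoctamin family, had 77 sites in its last exon at 1.03% and 0.821% in 344SQP and 1.06% and 1.19% in 344SQR. Ankrd24, an ankyrin repeat protein, was at 1.07% and 1.19% against 0.916% and 1.17% over 62 sites. Fam172a was at 1.53% and 0.460% against 1.54% and 0.640% and Tchh, encoding trichohyalin of the hair follicle, at 1.93% and 1.06% against 0.664% and 0.691%. Differences in these 4 genes were all under 1 point, and in Fam172a and Ankrd24 the lines overlapped.

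Exons were on average more methylated than introns of the same genes, and the gap was wider in 344SQR. In 2677 genes with 3 or more sites of each kind, exons averaged 85.2% and 85.2% in 344SQP and 82.0% and 77.8% in 344SQR. Introns over 5 kb from any TSS averaged 77.9% and 77.4% in 344SQP and 73.8% and 68.2% in 344SQR. The mean of exon minus intron was 7.33 and 7.88 points in 344SQP and 8.22 and 9.67 in 344SQR. The lines did not overlap, and the gap was 1.34 points wider in 344SQR (two-sided exact permutation p = 0.333, the smallest possible). Without 344SQR replicate 2 it was 0.615 points wider. Exons were the more methylated part in 1912 and 1922 of these genes in 344SQP and in 1925 and 1937 in 344SQR. The difference was more negative in introns in 1571 genes and in exons in 1106. Over these genes, which share tumors and neighbourhood and are not independent, the exon difference and the intron difference had r = 0.464.

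Promoters of the same genes were at the opposite end of the scale. In 3221 genes with a measured promoter it averaged 9.94% and 12.4% in 344SQP and 9.72% and 11.6% in 344SQR, while their exons averaged 86.2% and 86.4% in 344SQP and 83.4% and 79.8% in 344SQR. The mean difference was -4.75 points in exons and -0.532 points in promoters, whose averages overlapped between lines. Without 344SQP replicate 2 the promoter difference turned positive. Exon minus promoter averaged 75.1 points in 344SQP and 70.9 in 344SQR, but 73.6 in 344SQR replicate 1. The contrast was thus smaller without 344SQR replicate 2. Across these genes the exon and promoter differences had r = -0.00541, a description over genes of the same tumors.

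CpG density around a site went with its level and, with all tumors included, with the difference between lines. At 3605 sites with 1 to 4 CpGs within 100 bp, methylation was 86.7% and 85.5% in 344SQP and 82.1% and 75.6% in 344SQR. At sites with 5 to 9 CpGs, the most frequent class (22106 sites), it was 87.7% and 87.3% against 84.1% and 79.1%, and with 10 to 14 it was 85.5% and 85.9% against 83.1% and 80.2%. In the densest class, 5840 sites with 20 or more CpGs, it was 37.7% and 48.2% in 344SQP and 38.8% and 48.7% in 344SQR. There the lines overlapped, with replicate 2 the higher tumor in each, and the mean difference was 0.810 points against -7.24 in the sparsest class. That contrast depended on which tumors were included. Replicate 1 of 344SQR was at 38.8% in the densest class, below the 344SQP mean of 42.9%. In the sparsest class it was at 82.1% against a 344SQP mean of 86.1%. Without 344SQR replicate 2 the difference was thus negative and of similar size in both classes. Against 344SQP replicate 1 alone, however, 344SQR replicate 1 was higher in the densest class (38.8% against 37.7%). In the sparsest class it was lower (82.1% against 86.7%).

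Base composition gave the same order with all tumors, with a mean difference of -5.37 points at 50% to 60% GC and 0.575 points at 70% GC or more. The order was not kept without 344SQR replicate 2. Replicate 1 of 344SQR was at 85.1% against a 344SQP mean of 88.3% at 50% to 60% GC. At 70% GC or more it was at 39.6% against 43.7%, so that the difference there was negative as well. Taken alone, 344SQP replicate 1 was at 38.7% at 70% GC or more and at 88.5% at 50% to 60% GC. The order thus depended on which tumors were included. Sites within 50 bp of CCGG, the sequence cut by MspI, an enzyme commonly used for RRBS, made up 99.6% of all.

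Differences were larger at greater distance from the TSS. Between 5 and 10 kb methylation was 73.4% and 76.0% in 344SQP and 71.8% and 71.2% in 344SQR over 18515 sites. Between 20 and 50 kb it was 84.9% and 85.6% against 81.9% and 78.4%, and beyond 100 kb 87.1% and 86.5% against 81.3% and 73.5% over 787 sites. The difference went from -3.22 to -9.41 points over these classes. Without 344SQR replicate 2 the widening kept its direction but was smaller. Replicate 1 of 344SQR was at 71.8% against a 344SQP mean of 74.7% between 5 and 10 kb. Beyond 100 kb it was at 81.3% against 86.8%. Sites in the last coding exon were less methylated than others in each tumor, at 70.8% and 75% against 69.4% and 70.8%. In the remaining exons they were 82.2% and 82.7% against 79.3% and 75.9%.

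The position of the cytosine in its codon made little difference to the change between lines. With the C first in the codon, as in the CGN codons of arginine, methylation was 82.9% and 83.7% in 344SQP and 80.4% and 77.4% in 344SQR (19089 sites). With the C second it was 76.2% and 78.4% against 73.9% and 72.6%, and with the C in the last position 77.1% and 78.8% against 74.5% and 72.7%. The difference between lines was -4.41, -4.02 and -4.33 points. Among codons with the C second, the GCG codon of alanine was the least methylated, at 68.3% and 72.2% against 67.3% and 68.9%, and the CCG codon of proline was at 79.1% and 81.1% against 76.7% and 75%. Cytosines of the coding strand were at 79.5% and 80.9% against 77.0% and 74.8% and those of the template strand at 78.7% and 80.3% against 76.3% and 74.2%.

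The lower methylation was spread over the genome. The share of genes with both 344SQR tumors lower ran from 45.9% of 329 genes on chromosome 7 to 58.5% of 284 on chromosome 4. In windows of 1 Mb with 20 or more coding exon sites, both 344SQR tumors were lower in 446 of 645 and higher in 8. The median difference of the windows was -3.91 points, and 64 windows were over 10 points lower. Such windows were not counted for other sites of the series. Each averages 20 or more sites, against a median of 8 per gene, so these counts are not comparable with the shares of genes or features.

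On both sides of each threshold of the rule, means were lower in 344SQR. Coding sites 5 to 6 kb from a TSS, just inside, were at 72.7% and 75.9% against 71.5% and 71.6%, and those 4 to 5 kb away, just outside, at 68.0% and 72.3% against 66.1% and 67.3%. Sites with 20 to 24 reads in the least covered tumor were at 83.2% and 84.5% against 80.4% and 77.8%, and sites with 15 to 19 reads, just outside, at 81.9% and 83.1% against 78.7% and 75.1%. Genes with 3 sites were at 87.6% and 87.0% against 83.9% and 79.0% (512 genes), and genes with 2 sites, which were left out, at 87.4% and 86.1% against 83.2% and 77.7% (571 genes).

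Groups of genes with related functions are described next by counts and medians, beside the 51.6% of coding exon genes and 44.4% of all features with both 344SQR tumors lower. No gene of any of the 14 groups passed an adjusted p of 0.05 with edgeR and all tumors, so the counts at an unadjusted p under 0.05 are given as well, beside 20.03% of coding exon genes and 16% of all features. Of the genes named below, with a tumor left out, Prdm13, Fbn2 and Nfatc2 passed without 344SQP replicate 2 (edgeR adjusted p = 0.0235 for Fbn2 and 0.00471 for Nfatc2), and Col4a3, Fbn2, Notch4 and Nfatc2 without 344SQR replicate 1 (0.0499 each). By limma no gene passed, and the logistic test called genes in every group. Among the genes named from these groups, 344SQR replicate 2 was the lowest tumor and both 344SQR tumors lay below both 344SQP tumors, except in Itgb4, Sema6c, Prdm13 and, for the lowest tumor, Alk and Bmp7. Without 344SQR replicate 2 many differences were smaller by over 1.5 times, such as -14.4 in place of -25.4 points in Col4a3, -15.5 in place of -26.2 in Fbn2 and -11.7 in place of -27.1 in Notch4. The same held for Cdh13 (-7.83 against -14.3), Epha8 (-13.0 against -22.5), Kif26a (-5.29 against -11.9) and Stab1 (-9.61 against -17.1). It held for Tet1 (-4.12 against -9.86), Nfatc2 (-4.66 against -7.74), Smad6 (-1.01 against -2.74) and Ryr1 (-2.21 against -4.31). Smaller differences shrank likewise in Kmt2d (-0.439 against -1.81), Hspg2 (-0.786 against -1.58), Col18a1 (-0.640 against -1.32) and Sema6c (1.37 against 2.47).

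Of 31 collagen genes, 21 had both 344SQR tumors lower and 1 had both higher. The median gene was at 88.9% and 89.4% in 344SQP and 81.3% and 70.8% in 344SQR, and 9 genes had an unadjusted p under 0.05 (24 lower and 3 higher by the logistic test). Col4a3, a chain of basement membrane collagen IV, was at 89.4% and 88.2% in 344SQP and 74.4% and 52.4% in 344SQR over 10 sites, while Col18a1, the collagen that gives rise to endostatin, was at 94.7% and 95.3% against 94.4% and 93.0% over 45. Of 29 basement membrane and matrix glycoproteins, 14 were lower and 3 higher in both tumors, with a median difference of -3.77 points and 4 genes at an unadjusted p under 0.05. Hspg2, encoding perlecan, was at 92.8% and 93.2% against 92.2% and 90.6%, close to full methylation, but Fbn2, encoding fibrillin-2 of microfibrils, at 89.8% and 85.6% against 72.2% and 50.7%.

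Among 18 cadherins and atypical cadherins, 12 were lower and 2 higher in both 344SQR tumors, with 6 at an unadjusted p under 0.05. Cdh13, a cadherin anchored without a cytoplasmic tail, was at 89.6% and 86.5% in 344SQP and 80.2% and 67.4% in 344SQR, and the classical type II cadherin gene Cdh22 at 38.3% and 42.1% against 32.9% and 32.9% over 85 sites. Among 16 integrins, 6 were lower and 0 higher, with a median difference of -1.12 points, nearer to 0 than that of all features, and 2 genes at an unadjusted p under 0.05. Itga9 was at 81.5% and 77.7% against 65.2% and 48.9% with a difference of -22.5 points, which was -4.17 at 50 or more reads, -12.9 with reads pooled and -14.4 without 344SQR replicate 2. Itgb4, the integrin of hemidesmosomes, was at 48.5% and 67.3% against 56.2% and 70.6%, where the lines overlapped. Leaving out 344SQP replicate 1 turned the Itgb4 difference from 5.48 to -3.91 points.

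Of 34 axon guidance genes, 16 were lower and 2 higher in both tumors, and 11 had an unadjusted p under 0.05 (10 lower, 1 higher). Epha8, an ephrin receptor, was at 84.7% and 75.5% in 344SQP and 67.1% and 48.1% in 344SQR, but Sema6c, a transmembrane semaphorin with 88 sites in its last exon, at 86.8% and 91.7% against 90.7% and 92.8%. Of 57 channel genes 40 were lower and 2 higher, 19 had an unadjusted p under 0.05 (18 with a lower and 1 with a higher mean), the median difference was -6.68 points and the median gene was at 87.5% and 83.8% in 344SQP and 77.6% and 69.7% in 344SQR. Kcnj5, an inward rectifier of potassium, was at 91.2% and 86.6% against 70.6% and 54.4%, and Ryr1, the calcium release channel of skeletal muscle, at 34.6% and 32.4% against 31.3% and 27.1% over 133 sites.

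None of 55 motor protein genes was higher in both 344SQR tumors, and 39 were lower, with 16 at an unadjusted p under 0.05. Kif26a, a kinesin-like protein, was at 79.5% and 71.9% in 344SQP and 70.4% and 57.2% in 344SQR over 99 sites, and Myo18b, an unconventional myosin of muscle, at 82.7% and 81.7% against 69.8% and 59.5% over 43. Of 21 genes of the muscle sarcomere and of excitation, 14 were lower and 0 higher, with 8 at an unadjusted p under 0.05. Cacna1s, the voltage sensor of skeletal muscle, was at 95.1% and 91.5% against 75.6% and 68.2%, a difference of -21.4 points that was -4.15 for sites with 50 or more reads. The median muscle gene was at 87.7% and 81.7% in 344SQP and 79.2% and 68.8% in 344SQR.

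Of 25 receptor tyrosine kinases, 14 were lower and 1 higher, with a median difference of -6.14 points and 6 genes at an unadjusted p under 0.05. Erbb4, a receptor of neuregulins, was at 85.9% and 81.9% in 344SQP and 72.5% and 61.3% in 344SQR and Alk at 38.5% and 47.4% against 26.5% and 30.1% over 46 sites, of which 34 in the last exon were at 20.5% and 34.1% against 10.1% and 18%. Of 8 Notch receptors and ligands, 2 were lower and 1 higher, with 1 at an unadjusted p under 0.05. Notch3 was at 60.6% and 59.7% against 51.4% and 48.4%, and Notch4, known for its expression in endothelium, at 76.6% and 73.6% against 63.4% and 32.6% over 6 sites, where 344SQR replicate 2 stood far below the rest.

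Most chromatin genes were close to full methylation in all tumors. Of 63 genes 26 were lower and 5 higher, the median gene was at 94.4% and 95.6% in 344SQP and 94.2% and 92.4% in 344SQR, and 5 genes had an unadjusted p under 0.05 (3 lower, 2 higher). Tet1, an enzyme that oxidizes methylcytosine, was at 93.9% and 94.8% against 90.2% and 78.7% over 5 sites. Prdm13, a developmental factor with 139 sites in its last exon, was an exception at 26.9% and 56.5% in 344SQP and 35.1% and 66.2% in 344SQR. Replicate 2 of each line stood well above replicate 1 there, by more than the lines differed, and the difference of 8.96 points turned to -5.79 without 344SQP replicate 1 and -6.56 without 344SQR replicate 2. Without 344SQP replicate 2 it was 23.7 (edgeR adjusted p = 0.000585).

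Among 15 measured genes of BMP and TGF-β signalling, 8 were lower and 2 higher in both tumors, with 4 at an unadjusted p under 0.05. Gdf10, a ligand of this family, was at 83.6% and 87.9% in 344SQP and 75.5% and 69.1% in 344SQR, and Smad6, an inhibitor of BMP signals, at 96.2% and 97.3% against 95.7% and 92.3% over 40 sites. Bmp7, the ligand this study followed up, had 13 sites in exon 2 (chr2:172916467-172916659) at 96.2% and 95.8% in 344SQP and 94.4% and 94.7% in 344SQR (edgeR adjusted p = 0.771). Its promoter was at 22.1% and 40.1% against 3.75% and 9.63%, lower in both 344SQR tumors. Exon 2 of Bmp7 was thus almost fully methylated in each tumor, with lines that differed by -1.44 points.

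Of 15 lung cancer drivers and suppressors, 8 were lower and 2 higher in both tumors, the median difference was -1.81 points, and 2 had an unadjusted p under 0.05. Kmt2d, a histone methyltransferase, was at 93.6% and 93.2% against 92.9% and 90.2% over 78 sites. Of 25 genes of leukocyte receptors and signalling, 13 were lower and 0 higher, and 9 had an unadjusted p under 0.05 (8 with a lower and 1 with a higher mean). Nfatc2, a transcription factor of T cells, was at 97.1% and 95.2% in 344SQP and 91.5% and 85.3% in 344SQR over 51 sites, and Stab1, a scavenger receptor of macrophages and endothelium, at 79.9% and 78.6% against 69.6% and 54.6%. The median leukocyte gene was at 87.7% and 88.9% in 344SQP and 83.3% and 71.9% in 344SQR. Across the 14 groups, 391 genes were counted, 21 of them in more than 1 group.

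Promoters of cell type markers describe the cells in the same tumors. Of 25 leukocyte markers 5 had a measured promoter, with a mean of 44.3% and 56.0% in 344SQP and 46.1% and 54.3% in 344SQR, and Coro1a was the least methylated. For epithelial markers (12 of 15) the mean was 17.9% and 17.1% against 16.9% and 16.5%, with Cdh1 at 6.25% and 6.04% against 5.76% and 5.83% and Epcam at 4.51% and 5.47% against 5.77% and 4.56%. Fibroblast and endothelial markers (4 of 12) averaged 17.7% and 23.1% against 17.3% and 25.1%, and muscle markers (6 of 11) 50.0% and 51.4% against 44.9% and 43.4%. Leukocyte, fibroblast and endothelial promoters were on average more methylated in replicate 2 of each line, whose share of chromosome Y calls was also lower, 0.0254% against 0.0406% in 344SQP and 0.0178% against 0.0555% in 344SQR. The part of the cell mix in the exon differences was not tested.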

How the data were processed

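Whole-tumor DNA of 2 344SQP and 2 344SQR tumors was measured by RRBS with single reads of 50 bases. Per the labels, the authors trimmed reads with Trim Galore 0.4.1 and cutadapt 1.9.1, aligned them to mm10 with Bismark and Bowtie 1.1.2, and wrote a table per tumor for methylKit. The deposited tables give, for each CpG cytosine, its coverage as a read count and the percent of reads that were methylated. Methylated reads, computed as coverage times percent, came within 0.266 of a whole read at all coding exon sites of the rule.

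Coding exons and TSS came from the GENCODE basic annotation of mm10. Each gene's coding exon sites, its introns more than 5 kb from any TSS, promoters (1000 bp upstream to 500 bp downstream of a TSS) and other windows of 1 kb with 3 or more sites gave 63250 features. Of these, 63238 could be tested by edgeR 4.0.16 (R 4.3.3), a quasi-likelihood fit of methylated and unmethylated counts with Benjamini-Hochberg adjustment over all features. Other tests were the logistic test per site with Stouffer's z, as the authors did for promoters, and limma 3.58.1 on log2 ratios with 1 read added. Exact permutation tests used Python 3.11.15, numpy 2.4.6, scipy 1.17.1 and pandas 2.3.3. The fits were tested on simulated data.

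Named genes were those called by edgeR, up to 8 in each direction. They were joined by the 6 with the largest difference in each direction among genes with 10 or more sites and no overlap, and by the 4 with most sites and the 4 with the lowest mean. From each of the 14 groups came the gene with most sites and that with the largest difference among genes with 5 or more sites, and Bmp7 was added. One of these genes is not reported. The members and lists were chosen with earlier results of these data known. Single exons of a gene were picked out after their values were seen. Alternatives were tried for coverage, strands, reads, distance, sites per gene, the test, the mean per gene and each tumor.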

Additional observations from a re-analysis of the deposited data

Results flagged for a closer look

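Reads on chromosome Y were listed in all 4 tumors, although the mice were female. They made up 0.0406% and 0.0254% of the CpG calls in 344SQP and 0.0555% and 0.0178% in 344SQR, lower in replicate 2 of each line. Chromosome X held 1.59% and 1.28% against 1.51% and 1.18%. The coding exon genes of the rule were all autosomal, but sites on chromosome Y were not left out of the other features. The source of the chromosome Y reads was not tested.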

How the results depend on the processing

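By edgeR, 2 coding exon genes were called (770 at an unadjusted p under 0.05). The count was 2 at a minimum of 10 reads, with strands merged, and without sites of extreme coverage, and 3 at 2 kb from any TSS, of which 1 was among the 2. It was 1 at 50 reads (635 at an unadjusted p under 0.05). It was 0 with reads thinned to equal coverage (729 unadjusted), 0 at 10 kb (527), 0 with 10 or more sites per gene (315) and 0 with TSS of the comprehensive annotation (515), an alternative chosen after seeing the data. The logistic test called 2507 genes and limma 0 (738 unadjusted). With each tumor left out in turn edgeR called from 0 (without 344SQR replicate 2, 285 unadjusted) to 42 (without 344SQR replicate 1), where the lone tumor is assumed to vary like the others. Fewer tumors, genes or reads enter these tests, but the cause of each shift was not tested.

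With replicate number as a block, edgeR called 978 genes (936 lower, 42 higher), beside 21.4% of all features. Nothing in the labels pairs the tumors, and there are only 2 pairs, so no called gene is taken from the block. Over 3844 genes, which are not independent, replicate 1 minus replicate 2 in the lines had r = 0.623. Within replicate numbers the mean difference was -3.09 and -7.22 points.

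The mean difference over genes, -5.15 points, kept its sign under all alternatives, from -5.66 (comprehensive TSS) to -4.29 (each site counted once), and from -7.18 to -3.13 with a tumor left out. The share of genes with both 344SQR tumors lower ran from 50.0% to 56.8%, and from 58.7% to 71.9% with a tumor left out, when less is asked of a gene. The exon minus intron difference ran from 1.31 to 1.78 points, and from 0.615 to 2.06 with a tumor left out. Of 249 values of 50 named genes with all tumors, 14 moved by more than the spread between tumors, a measure that cannot be exceeded when a tumor is left out. Of 449 values in all, 6 lost a call (Khk and Baiap2l2), counted without the changes of distance, sites per gene and annotation. No called gene changed sign. Signs changed in 4 of 249 values with all tumors and 9 of 200 with a tumor left out, all in Fam172a, Ankrd24, Shank1, Itgb4 and Prdm13.

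With 2 tumors per line, no permutation test can reach 0.05, and edgeR calls rest on a spread estimated across features. A gene is read at a median of 8 sites, which need not stand for its other CpGs. A C/T difference between the 129Sv/Ev genome and the reference would read as unmethylated in every tumor. Each line is a single cell line, all tumors were given anti-PD1, and tumor content was not measured, so line, resistance and cell mix cannot be told apart.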

Other observations

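Coding exons left out by the rule had values of their own. On chromosome X, 54 genes with 3 or more sites had a mean of 88.3% and 88.6% in 344SQP and 85.4% and 81.1% in 344SQR. Both 344SQR tumors lay below both 344SQP tumors in 23 of these genes and above in 6, beside 44.4% and 5.55% of all features. The 76 genes with symbols starting with Zfp, mostly zinc finger genes, were at 90.8% and 91.7% against 89.4% and 87.9%, with 32 lower and 5 of the 76 higher in both tumors, beside the same shares of all features. Their median difference was -1.37 points, nearer to 0 than the -3.06 points of the coding exon genes. The 5 Pcdh genes were at 77.3% and 81.3% against 72.8% and 70.6%, and the 2 Hox genes at 27.7% and 49.0% against 24.6% and 34.3%, with replicate 2 higher in each line for Hox only.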
